A study of Homo sapiens with 6 samples.

Results

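Mucin-type O-glycosylation is built by a small set of Golgi enzymes, and 32 genes that encode them were followed in breast cancer cells with and without silencing of MUC1, a transmembrane mucin that carries such glycans. The genes were taken by name from a table of 37887 rows, as 17 GalNAc-transferases (GALNT genes) that start the chain, 2 genes for the core 1 step, 3 branching enzymes (GCNT genes), 2 β1,3-N-acetylglucosaminyltransferases (B3GNT genes), 3 α2,3-sialyltransferases (ST3GAL genes) and 5 α2,6-sialyltransferases (ST6GALNAC genes). MDA-MB-436 is an established triple-negative breast cancer line with mutant BRCA1, and all of the cells used here stably carried a tetracycline-inducible MUC1 shRNA in a lentiviral vector. Control cells received 0.1% DMSO as vehicle and shMUC1 cells received 500 ng/ml doxycycline (DOX), with 3 RNA-seq libraries in each group. Sample titles name the controls as a control shRNA, whereas the treatment labels describe the same inducible cells with vehicle, and the latter was used. A DOX-treated control shRNA library was not analysed here, so DOX itself and MUC1 silencing cannot be told apart, and the length of treatment is not given in the labels. RNA was measured in a single line, and more or fewer cells in a given state and more or less RNA per cell cannot be told apart in bulk samples.

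A GalNAc-transferase attaches the first sugar, N-acetylgalactosamine, to a serine or threonine of a protein in the Golgi, which gives the Tn antigen. C1GALT1 then adds galactose to form core 1, the T antigen, with the help of its dedicated chaperone C1GALT1C1 (COSMC). Core 1 can be branched to core 2 by GCNT1, extended by B3GNT3, or capped with sialic acid by ST3GAL and ST6GALNAC enzymes, and short or early capped chains on MUC1 are a known feature of breast carcinomas.

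The libraries held 18678307 to 27825546 counts, and the targeted gene was examined before the enzymes. MUC1 had 93, 84 and 102 counts in control and 72, 51 and 34 counts in shMUC1 libraries, so the groups did not overlap once scaled to library size. Mean levels were 3.88 ± 0.401 and 2.14 ± 0.412 CPM (counts per 1000000 counts, SD, n = 3 each). The log2 fold change was -0.84 (SE 0.214), and its p in edgeR's quasi-likelihood test, adjusted after Benjamini and Hochberg over the 15355 genes tested, was 0.00119. MDA-MB-436 is a mesenchymal-like line, and the VIM, CDH2, ZEB1, FN1 and SPARC transcripts together made up 1844 to 1876 CPM in control and 1821 to 1867 CPM in shMUC1 libraries, with FN1 higher and the other 4 lower. ESR1 and PGR, hormone receptor genes whose low expression is part of the triple-negative label, were under the low-count filter, whereas ERBB2, the third receptor of that label, was at 44.7 ± 2.40 CPM in control and 38.9 ± 0.462 CPM in shMUC1 cells (SD, n = 3 each).

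Of the 32 enzyme genes, 25 passed the filter on low counts and were tested. An adjusted p under 0.05 was reached by 10 genes that were higher in shMUC1 cells, where 25.2% of all tested genes were higher, and by 5 genes that were lower, where 23.6% of all tested genes were lower. A change of over 2-fold together with that threshold was found for 5 enzyme genes (GALNT3, GALNT8, GALNT9, GALNT14 and B3GNT3), against 5.95% of all tested genes. CPM ranges of the groups did not overlap for 16 of the 25 genes, with 10 higher and 6 lower, against 54.8% of all tested genes. The median log2 fold change (shMUC1 minus control) was 0.16 over the 25 enzyme genes and 0.00058 over all tested genes. The former was the value of GALNT1, with ST3GAL4 next below it at -0.029, and it depended on single libraries. It was 0.0013 without shMUC1 replicate 1, 0.056 without control replicate 1 and 0.09 without control replicate 3. GALNT3 and GALNT9 passed the filter only through shMUC1 libraries, and GALNT8 only through control libraries, so that these 3 genes had to differ in order to be tested.

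**Figure D1:**
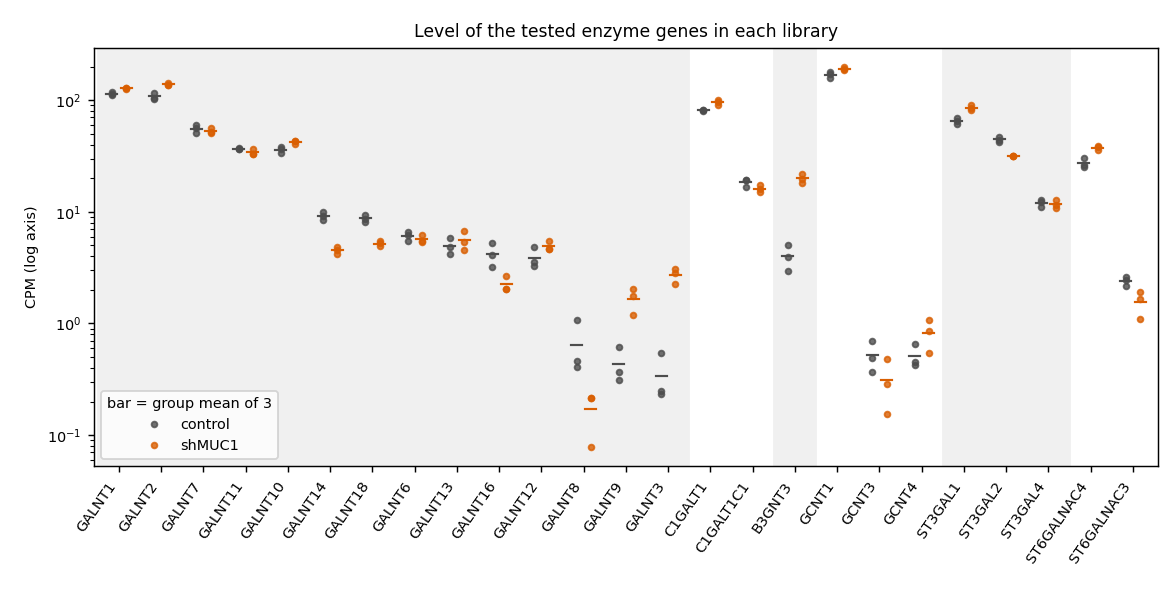
Level of the 25 tested enzyme genes in each library, in CPM on a log axis, with control libraries in grey, shMUC1 libraries in orange and a bar at each group's mean of 3 libraries. Shaded bands separate initiation, core 1, core 1 extension, branching, α2,3-capping and α2,6-capping genes. GCNT1, GALNT1 and GALNT2 sat above 100 CPM in every library, whereas GALNT3, GALNT8 and GALNT9 sat under 4 CPM, on a scale that is not adjusted for gene length.

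The GalNAc-transferases that start the chain moved in both directions. Of 17 genes, 14 were tested, 5 rose (GALNT1, GALNT2, GALNT3, GALNT9 and GALNT10), 4 fell (GALNT8, GALNT14, GALNT16 and GALNT18) and 5 did not pass the test. Over all tested genes 25.2% rose and 23.6% fell at that threshold. GALNT3, GALNT8 and GALNT9 passed the low-count filter through 1 group only, so their calls depend on that filter. The largest rise was that of GALNT3, and among the transferases of moderate level the largest fall was that of GALNT14.

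GALNT3, on chromosome 2 (GRCh38, 165747591 to 165794682, minus strand), encodes a transferase found in many epithelia and best known for glycosylating the phosphate-regulating hormone FGF23. It had 12, 6 and 6 counts in control and 78, 58 and 57 counts in shMUC1 libraries. The level rose from 0.342 ± 0.178 to 2.71 ± 0.417 CPM (SD, n = 3 each). All 3 shMUC1 libraries lay several-fold above the highest control library. The log2 fold change was 2.99 (SE 0.367, 95% interval 2.25 to 3.74, edgeR adjusted p 1.14e-08). GALNT3 was tested only because its shMUC1 libraries passed the low-count filter, so this p and interval are no independent support for the rise. The gene remained a minor transcript in either group.

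GALNT14, also on chromosome 2 (30910467 to 31155202, minus strand), encodes a transferase linked in cancer cells to glycosylation of TRAIL death receptors. Its counts were 219, 206 and 237 in control and 115, 118 and 91 in shMUC1 libraries. It fell by 1.02 on the log2 scale (SE 0.139), from 9.20 ± 0.766 to 4.54 ± 0.366 CPM (SD, n = 3 each), with an edgeR adjusted p of 9.89e-08. No shMUC1 library came near the lowest control library, and the 3 libraries of each group lay close together. GALNT18 and GALNT16 fell as well.

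GALNT18, on chromosome 11 (11270876 to 11622005, minus strand), belongs with GALNT8, GALNT9 and GALNT17 to the Y subfamily of the transferases. GALNT18 had 191, 198 and 241 counts in control and 146, 126 and 101 in shMUC1 libraries, or 8.72 ± 0.601 and 5.20 ± 0.277 CPM (SD, n = 3 each). It fell by 0.75 on the log2 scale (SE 0.135, edgeR adjusted p 1.53e-05). GALNT16, on chromosome 14, had 71, 129 and 105 counts in control and 56, 69 and 38 in shMUC1 libraries. Control libraries were spread for GALNT16, from 3.24 to 5.29 CPM, yet all were above the highest shMUC1 library at 2.68 CPM. GALNT16 fell by 0.90 on the log2 scale (SE 0.215, edgeR adjusted p 0.000644).

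GALNT1 and GALNT2, the most widely expressed transferases of the family, rose by small amounts. GALNT1 was at 113, 111 and 118 CPM in control and at 128, 127 and 129 CPM in shMUC1 libraries, a log2 fold change of 0.16 (SE 0.0399, edgeR adjusted p 0.000747). GALNT2 was at 105, 103 and 115 CPM in control and at 138, 138 and 141 CPM in shMUC1 libraries, a log2 fold change of 0.36 (SE 0.0421, edgeR adjusted p 3.31e-09). For both genes the 2 groups were set apart, by more for GALNT2 than for GALNT1. GALNT10, which prefers substrates that already carry a GalNAc, went from 38.1, 33.7 and 36.4 CPM to 43.1, 43.2 and 40.7 CPM. Its log2 fold change of 0.23 (SE 0.0641) had an edgeR adjusted p of 0.00252.

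GALNT9 and GALNT8 were near the limit of what these libraries could count. GALNT9 was tested only through its shMUC1 libraries and GALNT8 only through its control libraries, so their p-values are no independent support for a difference. GALNT9, a transferase known from brain, had 8, 15 and 8 counts in control and 56, 45 and 22 in shMUC1 libraries. Its log2 fold change was 1.95 (SE 0.397, 95% interval 1.14 to 2.75, edgeR adjusted p 8.99e-05), and no ranges overlapped. GALNT8, on chromosome 12 (4720341 to 4851927, plus strand), had 9, 26 and 12 counts in control and 6, 2 and 4 in shMUC1 libraries. It fell by 1.93 on the log2 scale (SE 0.594, edgeR adjusted p 0.00694), and control replicate 2 held more counts than the other 2 control libraries together. The call for GALNT8 was lost without control replicate 2 (log2 fold change -1.36, edgeR adjusted p 0.123) and without shMUC1 replicate 2 (-1.56, edgeR adjusted p 0.0572). With halved counts GALNT8 did not pass the low-count filter and was not tested. GALNT8 also shares 62.7% of its annotated exon length on the same strand with KCNA6, a potassium channel gene, and AC005833.1. The latter is not a row of the deposited counts. KCNA6 fell too, from 79, 100 and 149 counts to 35, 48 and 34 counts (edgeR adjusted p 1.51e-06), and its part in the GALNT8 count was not tested.

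The other 5 tested transferases did not pass the threshold. GALNT7, a follow-on transferase that acts on already glycosylated peptides, was at 55.6 ± 4.07 CPM in control and 53.2 ± 3.05 CPM in shMUC1 cells (SD, n = 3 each), with a 95% interval of the log2 fold change from -0.18 to 0.06. GALNT11, known for O-glycosylation of NOTCH1 and of LDL receptor family proteins, was at 36.8 ± 0.314 and 34.2 ± 2.31 CPM (SD, n = 3 each), with an interval from -0.24 to 0.03. For these abundant transcripts the intervals held no change beyond 0.24 on the log2 scale in either direction. GALNT6, a transferase reported in breast cancer, was at 6.04 ± 0.566 and 5.69 ± 0.482 CPM (SD, n = 3 each), with an interval from -0.40 to 0.20. GALNT13 was at 4.95 ± 0.819 and 5.56 ± 1.12 CPM (SD, n = 3 each), with an interval from -0.16 to 0.52. GALNT12 had a log2 fold change of 0.33 (SE 0.176, edgeR adjusted p 0.123), and passed the threshold only when control replicate 3 was left out (0.51, edgeR adjusted p 0.0334). GALNT12 shares 21.1% of its exon length with an annotated gene on the opposite strand, as do GALNT2 (13.3%) and, with 2.83% to 7.17%, GALNT6, GALNT7, GALNT9, ST3GAL2 and GCNT1, and the strand setting used for counting is not given in the sources used here.

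**Figure D2:**
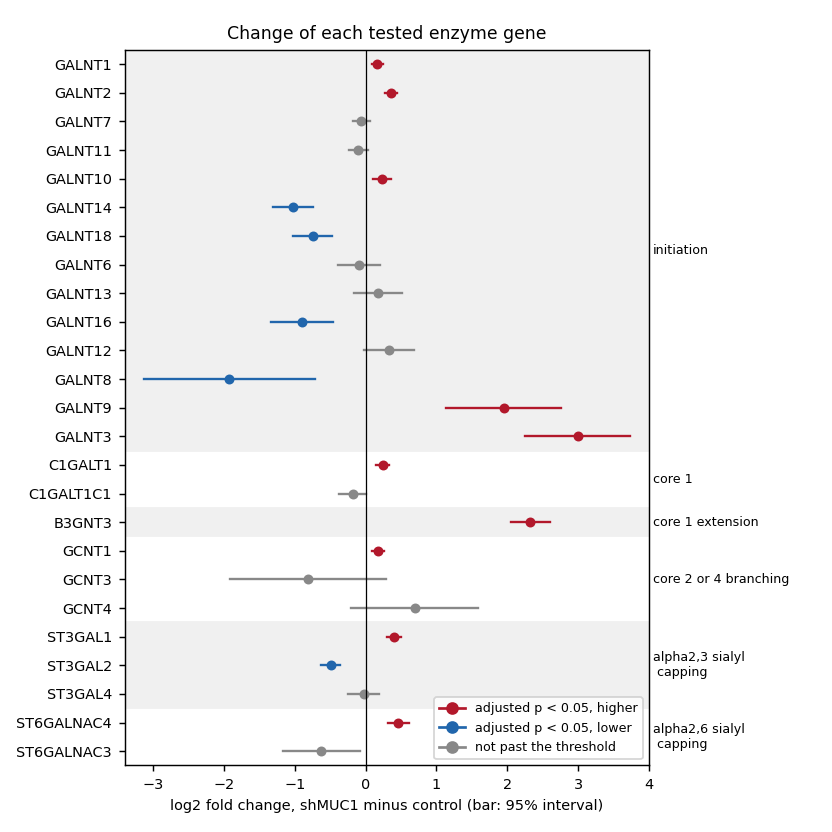
Log2 fold change (shMUC1 minus control) of each tested enzyme gene on the horizontal axis, with bars for the 95% interval, in red where the gene was higher and in blue where it was lower at an adjusted p under 0.05, and in grey otherwise. Among initiation genes 5 lie to the right and 4 to the left of 0 with an adjusted p under 0.05, and B3GNT3 stands alone among the core and capping genes at 2.33. Of all tested genes 25.2% were higher and 23.6% lower at that threshold.

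To see how these changes added up, CPM values were divided by exon length (RPKM, counts per kilobase of exon and per 1000000 counts). They were then summed over the 17 GALNT genes, without GALNT17, which is given below. The sum was 60.0 ± 1.23 RPKM in control and 65.5 ± 0.257 RPKM in shMUC1 cells (SD, n = 3 each). GALNT1 held 37.1% ± 0.309 of it in control and 38.1% ± 0.314 in shMUC1 cells (SD, n = 3 each), and was first in all 6 libraries. GALNT2 followed, with 22.8%, 22.6% and 24.2% in control and 27.0%, 27.2% and 27.9% in shMUC1 libraries, a larger share in every shMUC1 library than in any control library. GALNT7 and GALNT11 held 13.5% ± 1.26 and 7.40% ± 0.180 in control and 11.8% ± 0.649 and 6.30% ± 0.450 in shMUC1 cells (SD, n = 3 each). The GALNT7 ranges overlapped between the groups, while those of GALNT11 did not.

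Among transcripts above 1% of the sum, the shares of GALNT14 and GALNT18 shrank most in percentage points. GALNT18 went from 4.01%, 3.80% and 4.19% to 2.22%, 2.07% and 2.28%, and GALNT14 from 3.65%, 3.14% and 3.27% to 1.39%, 1.54% and 1.63%. In control cells the per-length order was GALNT1, GALNT2, GALNT7, GALNT11, GALNT10, GALNT18, GALNT14 and GALNT12. In shMUC1 cells GALNT12 (2.39% ± 0.230) stood ahead of GALNT18 (2.19% ± 0.110), although these neighbours overlapped, as did GALNT11 and GALNT10. GALNT3 held 0.122% ± 0.0637 in control and 0.883% ± 0.133 in shMUC1 cells (SD, n = 3 each), so that even after the rise it made up a small part of the sum. GALNT8, GALNT9 and GALNT3 could not be ordered in control cells, where their ranges overlapped.

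**Figure D3:**
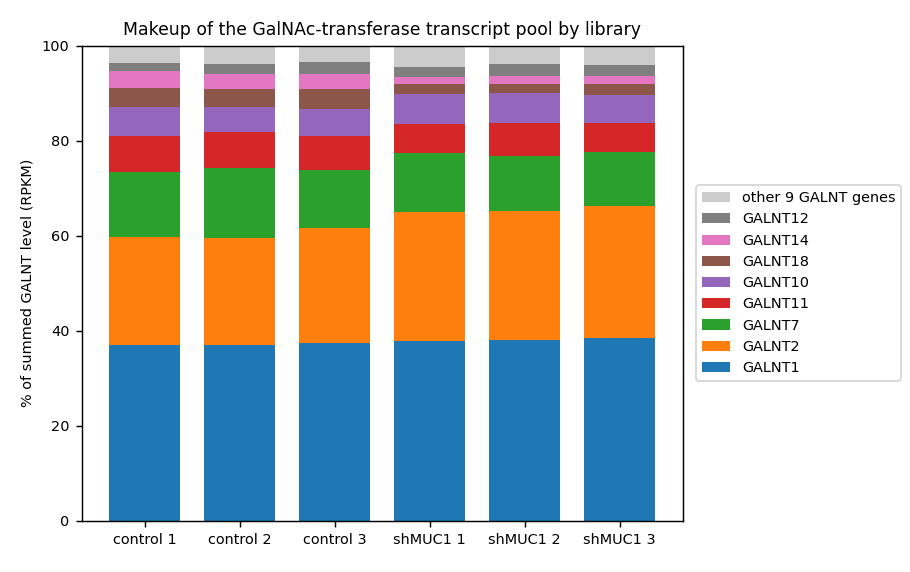
Share of each GALNT gene in the summed RPKM of the 17 GALNT genes, in percent, as stacked bars for each of the 6 libraries, with the 9 least abundant genes drawn as 1 block. GALNT1 is the tallest block in every library, GALNT2 is between 22.6% and 24.2% in control and between 27.0% and 27.9% in shMUC1 libraries, and the blocks of GALNT18 and GALNT14 are shorter in the 3 shMUC1 libraries.

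A further transferase of the family, GALNT17, was not among the 32 genes and is not in the sum and shares above. Per length it was at 2.10 ± 0.0904 RPKM in control and 3.97 ± 0.0450 RPKM in shMUC1 cells (SD, n = 3 each). GALNT17 went from 9.84, 10.2 and 10.7 CPM to 19.5, 19.1 and 19.3 CPM, a log2 fold change of 0.91 (SE 0.097, edgeR adjusted p 4.48e-10). GALNT17 and GALNT18, of the same subfamily, therefore moved in opposite directions.

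At the core 1 step the enzyme rose, and its chaperone did not pass the test. C1GALT1, on chromosome 7 (7156934 to 7248651, plus strand), the sole core 1 synthase, was at 80.7, 81.4 and 81.4 CPM in control and at 96.7, 100.5 and 89.9 CPM in shMUC1 libraries. The rise was 0.24 on the log2 scale (SE 0.0459, edgeR adjusted p 3.76e-05), and it exceeded the spread of both groups. C1GALT1C1, on the X chromosome, without which C1GALT1 does not fold, had 367, 466 and 493 counts in control and 442, 446 and 278 in shMUC1 libraries, or 18.3 ± 1.37 and 16.1 ± 1.19 CPM (SD, n = 3 each). Its CPM ranges overlapped, with a log2 fold change of -0.19 (SE 0.0933, edgeR adjusted p 0.0998). Per length, the level of C1GALT1 divided by that of C1GALT1C1 was 1.10, 0.974 and 0.976 in control and 1.38, 1.33 and 1.38 in shMUC1 libraries, without overlap.

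The smallest adjusted p of the 25 genes was that of B3GNT3, the enzyme that adds GlcNAc to core 1 and so opens the extended core 1 chain, known for the sulfated L-selectin ligands of lymph node vessels. B3GNT3, on chromosome 19 (17794828 to 17813082, plus strand), had 111, 72 and 102 counts in control and 504, 558 and 369 counts in shMUC1 libraries. Mean levels were 3.99 ± 1.05 and 19.9 ± 1.71 CPM (SD, n = 3 each), and the fold change was 5.02 with a 95% interval from 4.16 to 6.05. The lowest shMUC1 library, at 18.2 CPM, was well above the highest control library, at 5.06 CPM. On the log2 scale the change was 2.33 (SE 0.134, edgeR adjusted p 3.55e-17). Per length, B3GNT3 went from 1.73 ± 0.458 to 8.65 ± 0.745 RPKM (SD, n = 3 each), beside 12.3 ± 0.684 RPKM for C1GALT1 in shMUC1 cells. B3GNT6, which makes core 3 from the same starting sugar in colon and stomach, had 0 counts in all 6 libraries, which allows a level of up to 0.161 CPM in the shallowest library (3 counts).

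GALNT3 and B3GNT3 are known from epithelial cells, and epithelial markers rose in the same libraries. Of a list of 7 such markers, 4 were tested and all 4 rose (CDH1, EPCAM, KRT8 and KRT18). The summed level over the list went from 540 to 575 CPM in control to 1090 to 1131 CPM in shMUC1 libraries. This sum was mostly KRT8 and KRT18, at means of 824 and 266 CPM in shMUC1 cells, beside 14.3 CPM for EPCAM and 6.01 CPM for CDH1. CDH1 had 2, 9 and 26 counts in control and 156, 170 and 108 in shMUC1 libraries, and passed the low-count filter through the latter. KRT19 (2, 0 and 2 counts in control) and RAB25 (0, 2 and 4 counts in control) had 0 counts in all shMUC1 libraries, and GRHL2 had 0 counts in all 6. The ZEB1 transcript, which encodes a repressor of epithelial genes, went from 35.0 ± 2.43 to 17.9 ± 0.584 CPM (SD, n = 3 each). Lists of other cell types stayed at low summed levels, from 0.410 to 0.533 CPM in control and 1.02 to 1.63 CPM in shMUC1 libraries for 4 leukocyte genes, from 1.74 to 2.10 and from 0.543 to 0.698 CPM for 3 endothelial genes, and from 2.32 to 4.45 and from 2.15 to 2.53 CPM for 5 fibroblast genes. CD3E, COL1A2, DCN and LUM had 0 counts in all 6 libraries. The part of these changes in the rise of GALNT3 and B3GNT3 was not tested.

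Sequences before annotated RefSeq starts were examined because ZEB1 is known to bind the E-box letters CACCTG, and they are shown for members that passed the test and hold the box, and for B3GNT3. The 250 bases before each RefSeq start (GRCh38.p14) were searched for CACCTG on either strand, so that CAGGTG counts as the same box. RefSeq windows were matched by symbol for 22 of the 32 genes (34 windows, since some genes have several starts). Of the genes that passed the test, GALNT8, GALNT18, ST3GAL1 and ST3GAL2 were not matched. The box was in 8 windows of 7 genes, that is 23.5% of windows against 17.5% of 35116 windows of all genes. GALNT12, GALNT13 and ST3GAL4, which did not pass the test, were among these genes. The sites of the genes that passed the test follow 5′ to 3′ with 10 bases on each side and the box in capitals, from chr2:165794325-165794350 (minus strand) for GALNT3, chr2:31138551-31138576 (minus strand) for GALNT14, chr12:132206251-132206276 (minus strand) for GALNT9 and chr9:76459097-76459122 (plus strand) for GCNT1.
GALNT3: ccaaggttctCACCTGgagcgctcag
GALNT14: cgctcactccCACCTGggctcgctcc
GALNT9: gcgtgggcacCACCTGtgccaaggcc
GCNT1: cgagctcgcgCAGGTGggcgaggcgg
The box stood 93 bases before the start for GALNT3, 126 for GALNT14, 238 for GALNT9 and 75 for GCNT1. It was thus present in GALNT3, which rose, and in GALNT14, which fell, and a second window of GALNT14 and of GALNT9 and 3 further windows of GCNT1 held none. GENCODE 29 starts all 4 of these genes, and B3GNT3, further upstream, so that the printed stretches lie within the annotated genes, and the windows of GALNT3 and of GALNT14 with the box lie entirely in exons. A match is only a run of letters and not a measured site.

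B3GNT3 had no such box in its window. The part of the window before the exon at its RefSeq start, at chr19:17794888-17795109 (plus strand), is given because B3GNT3 had the smallest adjusted p of the enzyme genes, and it holds neither CACCTG nor CAGGTG.
B3GNT3: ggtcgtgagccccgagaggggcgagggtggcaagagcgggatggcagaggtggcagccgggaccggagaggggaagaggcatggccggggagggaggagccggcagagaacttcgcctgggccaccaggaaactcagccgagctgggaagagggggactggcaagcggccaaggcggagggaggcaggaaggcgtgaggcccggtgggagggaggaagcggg
The 250-base window was 70.4% G or C. The absence of the letters in this window says nothing of sites elsewhere in the gene.

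**Figure D4:**
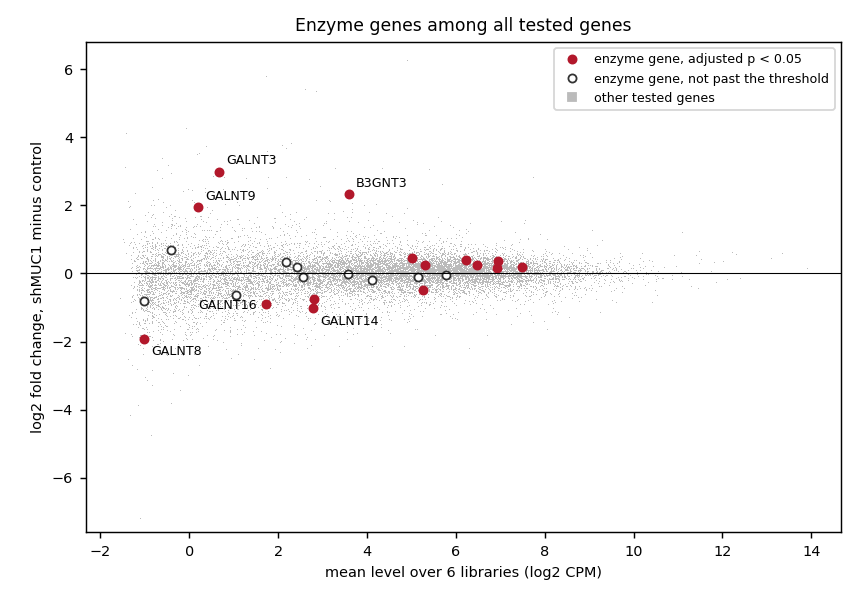
Log2 fold change (shMUC1 minus control) against mean level over the 6 libraries (log2 CPM) for 15355 tested genes as small grey points, with the 25 enzyme genes as circles, filled where the adjusted p was under 0.05. B3GNT3 at 2.33 and GALNT3 at 2.99 lie above most genes of like level, whereas the enzyme genes above 4 on the horizontal axis lie within 0.5 of 0.

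Among the 3 branching genes, GCNT1 made up nearly all transcripts, and it rose slightly. GCNT1, on chromosome 9 (76419850 to 76651203, plus strand), was second to GALNT1 among the 32 genes per length, with 18.3 ± 1.06 RPKM in control and 20.7 ± 0.775 RPKM in shMUC1 cells (SD, n = 3 each). It was at 179, 171 and 159 CPM in control and at 191, 199 and 184 CPM in shMUC1 libraries. It rose by 0.18 on the log2 scale (SE 0.0401, edgeR adjusted p 0.000364). The groups did not overlap, although the distance between them was small. GCNT3, which makes core 2 and core 4 in mucous epithelia, had 8, 12 and 18 counts in control and 8, 4 and 9 in shMUC1 libraries, with a log2 fold change of -0.81 and a 95% interval from -1.91 to 0.29. GCNT4 had 10, 16 and 11 counts in control and 30, 14 and 16 in shMUC1 libraries, with 0.69 and an interval from -0.20 to 1.58. Both intervals were wide at these counts.

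The sialyltransferases that cap core 1 on galactose split. ST3GAL1, the main enzyme for sialyl-T, which competes with GCNT1 for core 1, was at 68.5, 61.3 and 64.9 CPM in control and at 81.7, 90.0 and 84.5 CPM in shMUC1 libraries. ST3GAL1 rose by 0.40 on the log2 scale (SE 0.0506, edgeR adjusted p 2.56e-08). ST3GAL2, which acts on core 1 and on gangliosides, was at 46.9, 44.3 and 42.6 CPM in control and at 31.5, 31.9 and 31.6 CPM in shMUC1 libraries. It fell by 0.49 on the log2 scale (SE 0.0638, edgeR adjusted p 3.46e-08), and the 3 shMUC1 libraries lay within 1 CPM of each other. Per length, ST3GAL1 divided by ST3GAL2 was 1.61, 1.52 and 1.68 in control and 2.86, 3.11 and 2.95 in shMUC1 libraries, the largest shift among the 3 ratios computed. ST3GAL4, which prefers N-glycan and core 2 ends, was at 11.9 ± 0.926 and 11.7 ± 1.02 CPM (SD, n = 3 each), with a 95% interval of the log2 fold change from -0.25 to 0.19.

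Since GCNT1 and ST3GAL1 draw on the same core 1 substrate, their levels were also set against each other. Per length, GCNT1 divided by ST3GAL1 was 2.50, 2.66 and 2.34 in control and 2.23, 2.11 and 2.09 in shMUC1 libraries. The ratio was lower in each shMUC1 library than in any control library, and GCNT1 remained the more abundant of both transcripts throughout. Among the 6 genes that branch or α2,3-sialylate core 1, GCNT1 held 55.3% ± 1.11 of the summed RPKM in control and 56.8% ± 0.579 in shMUC1 cells, ST3GAL1 22.2% ± 1.05 and 26.5% ± 0.700, and ST3GAL2 13.8% ± 0.125 and 8.94% ± 0.272 (SD, n = 3 each).

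Of the 5 enzymes that place sialic acid on GalNAc, ST6GALNAC4 stood far above the rest per length, at 10.3 ± 0.991 RPKM in control and 14.2 ± 0.545 RPKM in shMUC1 cells (SD, n = 3 each), and ST6GALNAC3, the next, at 0.332 ± 0.0297 and 0.215 ± 0.0588 RPKM. ST6GALNAC4, on chromosome 9 (127907886 to 127917038, minus strand), which makes disialyl-T from sialyl-T, was at 30.1, 26.3 and 25.1 CPM in control and at 38.5, 37.7 and 35.7 CPM in shMUC1 libraries. It rose by 0.46 on the log2 scale (SE 0.0726, edgeR adjusted p 1.43e-06). ST6GALNAC3, with the same kind of acceptor, had 54, 63 and 56 counts in control and 53, 28 and 31 in shMUC1 libraries. The ST6GALNAC3 ranges did not overlap (2.17 to 2.58 and 1.09 to 1.92 CPM), but its log2 fold change of -0.63 (SE 0.269) had an edgeR adjusted p of 0.0529. ST6GALNAC3 passed the threshold with scaling by library totals only (-0.65, edgeR adjusted p 0.0457), with limma-voom (-0.66, adjusted p 0.0466), with halved counts (-0.65, edgeR adjusted p 0.0354) and without shMUC1 replicate 1 (-0.82, edgeR adjusted p 0.0344). Over all 8 sialyl-capping genes the sum was 25.4 ± 1.32 RPKM in control and 30.1 ± 0.921 RPKM in shMUC1 cells (SD, n = 3 each), of which ST6GALNAC4 held 40.5% ± 1.76 and 47.2% ± 1.28.

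The enzyme that makes sialyl-Tn was at the limit of detection in both groups. ST6GALNAC1, the sialyl-Tn synthase, had 0, 8 and 2 counts in control and 2, 4 and 0 in shMUC1 libraries, and was not tested. ST6GALNAC2 had 9, 2 and 8 counts in control and 4, 8 and 3 in shMUC1 libraries, and ST6GALNAC6, better known for gangliosides, had 3, 12 and 10 against 15, 6 and 6. Neither set the groups apart. ST6GALNAC2 shares 38.5% and ST6GALNAC6 47% of its exon length on the same strand with another annotated gene, so both counts are uncertain.

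The remaining untested genes were transferases of the initiation step. GALNT5 had 0 counts in all 6 libraries. GALNT15 had 4 counts in shMUC1 replicate 2 and none elsewhere. GALNT4 had 1 count, in shMUC1 replicate 1, but 93.2% of its exon length lies in the readthrough gene POC1B-GALNT4, and how reads shared by genes were counted is not given in the sources used here. POC1B-GALNT4 had 3 counts, all in shMUC1 replicate 1, so that a low GALNT4 count cannot be read as a low level of GALNT4 RNA.

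A short word in 3′ untranslated regions (3′ UTRs) is given beside these results, since an shRNA can act on transcripts with a partial match. The word ATCAGTA was tied to lower expression across genes in an earlier look at these same libraries. The medians of genes with and without it, given below, are thus not independent of that choice and are no test of the word. How the word relates to the sequence of the shRNA is not given here. It was in the GENCODE 29 3′ UTR of 4 of the 25 tested enzyme genes (16%) and of 1875 of 13030 tested genes with an annotated 3′ UTR (14.4%). The median log2 fold change was -0.11 over the 1875 genes with the word, 0.00097 over 3580 genes with only its core TCAGTA and 0.042 over 7575 genes without the core. The sites in GALNT1 (chr18:35710110-35710130, plus strand), GALNT10 (chr5:154419623-154419643, plus strand), GALNT13 (chr2:154453516-154453536, plus strand), GALNT6 (chr12:51352344-51352364, minus strand) and, for comparison, MUC1 (chr1:155187765-155187785, minus strand) follow 5′ to 3′ on GRCh38, with the word in capitals.
GALNT1: cttgcacATCAGTAgtttctg
GALNT10: agcccatATCAGTAggtcctg
GALNT13: ttatcttATCAGTAagacaaa
GALNT6: gcaaggtATCAGTAgccctga
MUC1: cagttcaATCAGTAtaaaacg
Of these enzyme genes GALNT1 and GALNT10 rose, and GALNT6 and GALNT13 did not pass the test. The core TCAGTA was in 12 of the 25 tested enzyme genes (48%) and in 41.9% of the 13030 genes. Of the enzyme genes with the core that passed the test, GALNT1, GALNT2, GALNT10, C1GALT1 and GCNT1 rose and GALNT8 fell. The part of such matches in the changes of the enzyme genes was not tested.

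The pathways that feed and surround these enzymes were followed with 9 further lists. Of 106 tested genes over these lists 24 rose (22.6%) and 31 fell (29.2%), beside 25.2% and 23.6% of all tested genes. Donor sugars for O-glycans are made in the cytosol or, for CMP-sialic acid, in the nucleus, and of 18 tested genes of this synthesis 6 rose and 4 fell, with a median log2 fold change of 0.042. GFPT1, which commits glucose to the hexosamine pathway, went from 236, 242 and 240 CPM to 132, 133 and 140 CPM and fell by 0.83 on the log2 scale (SE 0.0364, edgeR adjusted p 1.36e-20). GFPT2, a relative of GFPT1, rose by 0.23 (SE 0.0411, edgeR adjusted p 1.68e-05) and stood above GFPT1 per length in both groups. UAP1L1, a relative of the UDP-GlcNAc pyrophosphorylase, fell by 0.97 (SE 0.0513, edgeR adjusted p 3.8e-18). The pyrophosphorylase gene itself, UAP1, rose by 0.13 (SE 0.0358, edgeR adjusted p 0.00185) and stood above UAP1L1 per length in both groups. CMAS, which activates sialic acid for all sialyltransferases, rose from 88.2 ± 1.14 to 111 ± 2.75 CPM (SD, n = 3 each), by 0.33 on the log2 scale (SE 0.042, edgeR adjusted p 1.99e-08).

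Transporters that bring these donors into the Golgi rose or did not pass the test. Of 10 tested genes 6 rose and none fell, with a median of 0.22, where 25.2% of all tested genes rose and 23.6% fell. SLC35A1, the CMP-sialic acid transporter, went from 12.8 ± 0.467 to 19.5 ± 0.817 CPM (SD, n = 3 each), SLC35D2 rose by 0.46 and SLC35A4 by 0.43 on the log2 scale. Of 20 tested enzymes for chain elongation and terminal sugars 5 rose and 4 fell, with a median of 0.088. B4GALT6, a β1,4-galactosyltransferase of glycolipids, fell from 11.7 ± 0.588 to 4.91 ± 0.901 CPM (SD, n = 3 each), its relative B4GALT2 fell by 0.48 on the log2 scale, and B3GNT5, the lactotriaosylceramide synthase, rose by 0.44.

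Sialyltransferases outside the 32 genes fell or did not pass the test. Of 10 tested genes none rose and 6 fell, with a median of -0.58, where 25.2% of all tested genes rose and 23.6% fell. ST8SIA6 had 82, 91 and 80 counts in control and 26, 26 and 22 in shMUC1 libraries, and fell by 1.76 on the log2 scale (SE 0.258, edgeR adjusted p 4.03e-07). ST8SIA5, known for gangliosides, fell by 1.43, and ST8SIA4, a polysialyltransferase, fell by 1.40, and all 5 tested ST8SIA genes passed the test. Of the 5 tested sialyltransferases among the 32 genes, ST3GAL1 and ST6GALNAC4 rose and ST3GAL2 fell.

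**Figure D5:**
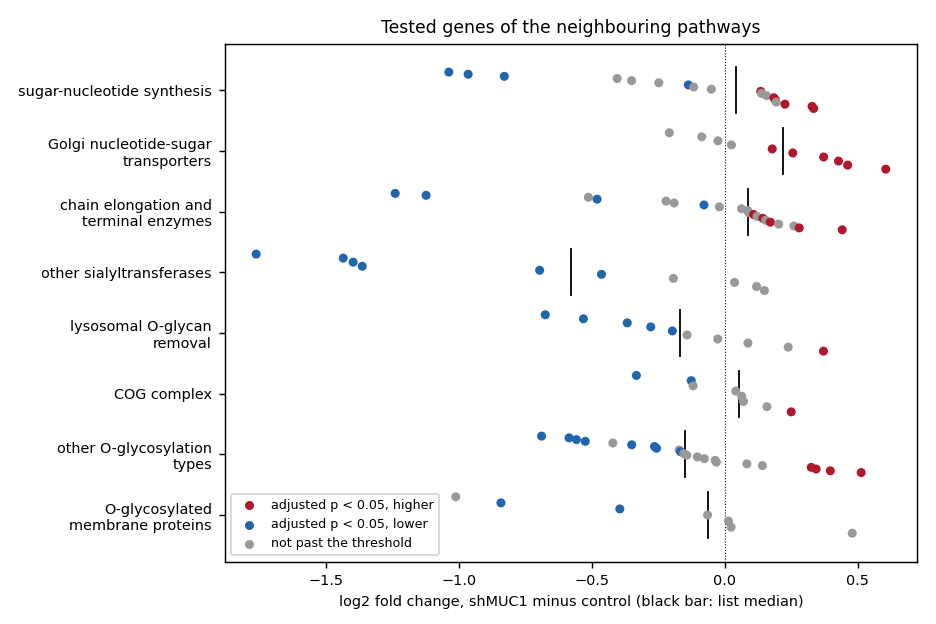
Log2 fold change (shMUC1 minus control) of each tested gene in 8 of the 9 further lists on the horizontal axis, 1 row per list, in red or blue where the gene was higher or lower at an adjusted p under 0.05 and in grey otherwise, with a black bar at the list's median. The other sialyltransferases have their median at -0.58 and the Golgi transporters at 0.22.

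Of 10 lysosomal genes that take O-glycans apart 1 rose and 5 fell, with a median of -0.17, among them GALNS (-0.68) and NEU3 (-0.53) as lower and GLB1 (0.37) as higher genes. Of 8 subunits of the conserved oligomeric Golgi complex, which keeps glycosyltransferases in their cisternae, COG4 rose by 0.25, COG1 fell by 0.33 and COG5 fell by 0.13 on the log2 scale, with a median of 0.052. Of 22 tested genes of other O-glycosylation types 4 rose and 8 fell, with a median of -0.15, among them LFNG (-0.69), POMT1 (-0.59) and XYLT2 (-0.56) as lower genes. Of 7 tested mucins and other heavily O-glycosylated membrane proteins none rose and 2 fell, MUC1 and PODXL (-0.40), with a median of -0.065. Beside these counts, 25.2% of all tested genes rose and 23.6% fell, and no list was tested as a set.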

How the data were processed

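RNA-seq was performed on MDA-MB-436 cells cultured in triplicate, with 3 libraries per group. The file deposited by the authors holds raw counts, 1 row per symbol. Per the labels a stranded mRNA kit was used, and the submitters' processing notes name CASAVA 1.8.2, STAR 2.7.9a, featureCounts, DESeq2 1.24.0 and GRCh38.p7. The annotation release and the strand and pair settings are not given in the sources used here. Among values from 1 to 20 counts 68.8% to 70.5% were even, and counts were therefore also halved. Counts were tested two-sided in edgeR 4.0.16 (quasi-likelihood, R 4.3.3, TMM, filterByExpr, group as the only term), adjusted over 15355 genes (Benjamini-Hochberg), at 0.05. The fit was tested on simulated data. CPM used TMM-scaled library sizes, and RPKM the exon length of GENCODE 29. SE were taken from the F statistic. Floors of 3 counts cover counting error only. Where separate cultures are not certain, p-values measure the spread between libraries.

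All enzyme genes were accounted for, and from each further list at most 3 were named, those called with the largest changes and 50 or more counts on average. GFPT2, UAP1 and ST6GALNAC5 were named in addition, as relatives of named genes. One gene of a further list is not reported here and was left out of its counts. Members, lists and the words searched were chosen with earlier results of these data known. Alternatives were DESeq2 1.42.0 and its size factors, library totals only, limma-voom (limma 3.58.1), other count filters, a replicate block, halved counts, omission of mitochondrially encoded genes, a 1.5-fold rule and each library left out. Same-numbered libraries did not deviate together (correlations of 0.0049, -0.032 and -0.038). Libraries of a group differed by more than the sampling noise of independent counts (chi-square per degree of freedom 2.79 to 5.55). That value is from counts that were not halved, and would be raised if both reads of a pair were counted.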

Additional observations from a re-analysis of the deposited data

How the results depend on the processing

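Of 221 alternative values of the 15 enzyme genes that passed the test, 219 had the same direction and call, and the 2 others were those of GALNT8. Of 145 values of the 10 genes that did not pass, 138 did so, 5 passed (GALNT12 and ST6GALNAC3), and ST3GAL4 changed sign, to 0.021 without control replicate 2 and 0.024 without shMUC1 replicate 3 (-0.099 to 0.024 with each library left out). Members higher ranged from 10 to 11 and lower from 4 to 6 with each library left out. Restriction to genes averaging 50 counts or more, which left 19 enzyme genes, put 2 past the 2-fold rule in place of 5. Halved counts left 22 enzyme genes, with 4 past that rule. GALNT8 was not tested in either setting, so it had 13 alternatives against 15 for MUC1. The median log2 fold change of the enzyme genes, 0.16, was 0.14 with library totals only, 0.15 without a count filter, 0.14 over the genes averaging 50 counts and 0.11 with DESeq2. It ranged from 0.0013 to 0.17 with each library left out. It was 0.0013 without shMUC1 replicate 1, 0.056 without control replicate 1 and 0.09 without control replicate 3, so this median depends on single libraries. Over the 25 genes it was the value of GALNT1, and the next lower gene, ST3GAL4, was at -0.029. Without control replicate 1 or 3, 26 enzyme genes were tested. Without shMUC1 replicate 1 the median was the value of GALNT13. Library totals shifted the median of all genes to -0.022. MUC1 was lower in all 15 alternatives (log2 fold change -1.02 to -0.75). Replicate numbers do not pair the libraries, and with a replicate block 10 enzyme genes were higher and 5 lower, as without it (3885 and 3591 of all genes). Depth limits GALNT8, GCNT3, GCNT4 and the 7 untested genes, which averaged under 20 counts.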
